A study of Mus musculus with 8 samples.

Results

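The nuclear receptor family was followed in the livers of 8 male db/db mice, 4 given control and 4 given AF1 peptide. Its members were taken from a list of 30 receptor genes by matching their symbols to the table of normalized read counts. Of these, 29 were among the 21532 genes of the table, and 28 had a mean normalized count of at least 10 over the 8 mice and were tested together with 15989 genes in all. The member that fell under this level was Nr4a3, and Vdr was not analysed here. Mice of both groups carried the db/db genotype, a loss of the working leptin receptor that leaves them obese and diabetic, so no lean animal enters any comparison. AF1 peptide is a synthetic sequence from the N-terminal part of estrogen receptor α, shortened by deletions within it. It is joined to a TAT sequence that carries it into cells. Injections into the retro-orbital sinus started at 8 weeks of age and went on for 5 weeks, with 2 doses of 5 mg per kg each week. What the control injection contained is not given in the sources used here. One library was made from each frozen liver. The comparison asks whether the liver's own set of receptor mRNAs was shifted in animals that received the peptide.

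Nuclear receptors are transcription factors that read small fat-soluble molecules, such as fatty acids, bile acids, steroids, retinoids, thyroid hormone and foreign chemicals, and switch genes on or off in answer. Many of them bind DNA as pairs in which RXR is the shared partner, whereas corticosteroid receptors act as pairs of their own kind and several orphan receptors have no known natural ligand. In hepatocytes these factors set fat oxidation, bile acid and drug metabolism, glucose output and the daily rhythm of metabolism.

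The libraries held 23031880 to 45117528 reads. Hepatocyte marker genes (8 of 8 tested) were abundant in each mouse, with none at 0 and a summed normalized count of 1852180 in AF1 peptide replicate 1 and of 2182060 to 2674990 in the others. AF1 peptide replicate 1 stood apart from the other 7 mice across the whole table. It lay at 74.2 on the first principal component, which held 39.3% of the variance, while the others lay between -21.8 and 2.33. It also had the lowest share of reads from mitochondrial genes (20.8%, against 22.4 to 37.8% elsewhere). Differences between the groups are therefore also given without this mouse for many of the receptors and listed genes. As these are whole livers, fewer cells of a type and less RNA per cell cannot be told apart. The receptors and gene lists were chosen with earlier results of these data known. Their counts beside the share of all tested genes are therefore descriptions and not independent tests.

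Levels were set side by side as normalized counts per kilobase of the longest annotated transcript. The most abundant receptors were all known regulators of hepatocyte metabolism. Nr1i3 came first with 2137 ± 245 per kilobase (SD, n = 8), followed by Hnf4a with 2026 ± 188, Ppara with 1796 ± 214, Nr1i2 with 1657 ± 237 and Rxra with 1062 ± 206 (SD, n = 8 each). Together these 5 genes made up 71.8 to 75.7% of the summed per-kilobase level of the 29 receptors in each mouse. Neighbours among the first 4 did not differ beyond their spread. Nr1i3 exceeded Hnf4a in 5 of the 8 mice, Hnf4a exceeded Ppara in 6 and Ppara exceeded Nr1i2 in 7, while Nr1i2 was above Rxra in all 8, although their ranges overlapped. Farther apart in the order, Nr1i2 was below Nr1i3 in each mouse, at 0.615 to 0.931 of its level. Exons of Tomm40l on the opposite strand lie over 74.9% of the exon bases of Nr1i3. Tomm40l had 5644 to 9896 normalized counts. Use of strand in counting is not given, so the level and rank of Nr1i3 and this ratio may include reads of Tomm40l.

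**Figure D1:**
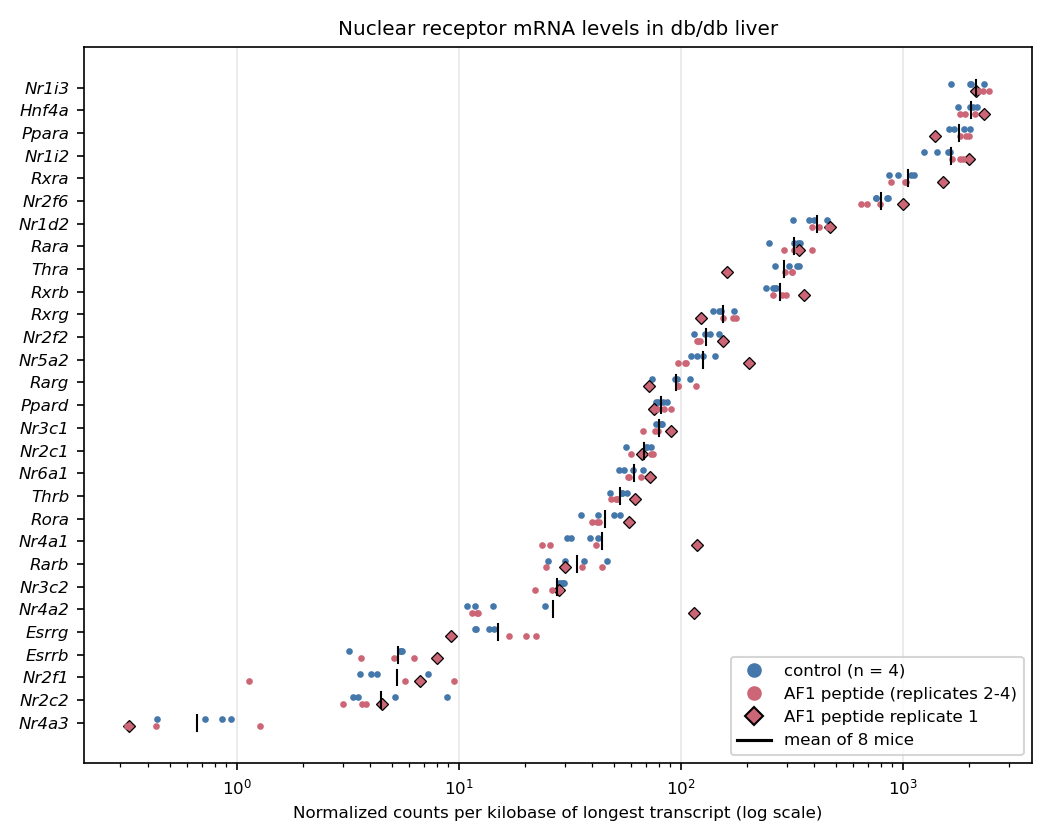
Level of each of the 29 nuclear receptor genes in normalized counts per kilobase of longest transcript (log axis), with 1 point per mouse, blue for control and red for AF1 peptide, a black-edged diamond for AF1 peptide replicate 1 and a black bar for the mean of 8 mice. The levels run from 0.665 (Nr4a3) to 2137 (Nr1i3), and the diamond lies far to the right of the other mice in Nr4a1 and Nr4a2 and to their left in Thra.

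Below them, Nr2f6 had 795 per kilobase, Nr1d2 412, Rara 326, Thra 293 and Rxrb 280 (means of 8 mice). The level of Nr2f6 may likewise include reads of Ocel1 on the opposite strand, which covers 54.4% of its exon bases. Ocel1 had 163 to 238 normalized counts. Clear steps, with no overlap between the neighbouring ranges, lay between Nr2f6 and Nr1d2, between Rxrb and Rxrg, between Esrrg and Esrrb, and between Nr2c2 and Nr4a3. Elsewhere each gene overlapped its neighbour in the order. The lowest tested members were Esrrb (5.35), Nr2f1 (5.29) and Nr2c2 (4.49), with as few as 12, 2 and 16 reads in a library. Nr4a3 had 2 to 5 reads in a library, and no change of it could be detected at this depth. Of the 29 members, 14 lay above the middle of the 14778 tested genes that had an annotated length. The order depends on the length used. With the median annotated transcript length, Hnf4a came first and Nr1i2 was 6th.

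Across the family, the mRNA levels of AF1 peptide-treated and control livers were close. None of the 28 tested receptors passed an unadjusted p value of 0.05 together with a change of more than 1.3-fold (0 genes in limma; 3.69% of all 15989 tested genes did). At an unadjusted p value under 0.05 without the fold threshold the count was 1 receptor, or 3.57% of 28, where 6.19% of all tested genes had such a value. The groups did not overlap in 1 receptor, again 3.57%, against 3.9% of all tested genes. This receptor was higher in treated mice, as were 3.16% of all tested genes by the p value and 2.05% by the lack of overlap. A count of 1 among 28 is a share near these backgrounds. The smallest Benjamini-Hochberg adjusted p value in limma was 0.763, both among the receptors and over all genes. Likewise edgeR and DESeq2 gave no receptor an adjusted p value under 0.05 (0 genes each), with 1 receptor at an unadjusted p value under 0.05 in each. For Nr4a2, at a log2 fold change of 1.29, DESeq2 gave no p value. The log2 fold changes had a median of 0.02 over the receptors and of -0.01 over all tested genes, with 18 receptors above and 10 below 0. For 21 of the 28 receptors the 95% interval of the log2 fold change lay wholly within a 1.5-fold change in either direction. For the other 7 receptors the interval reached past it.

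**Figure D2:**
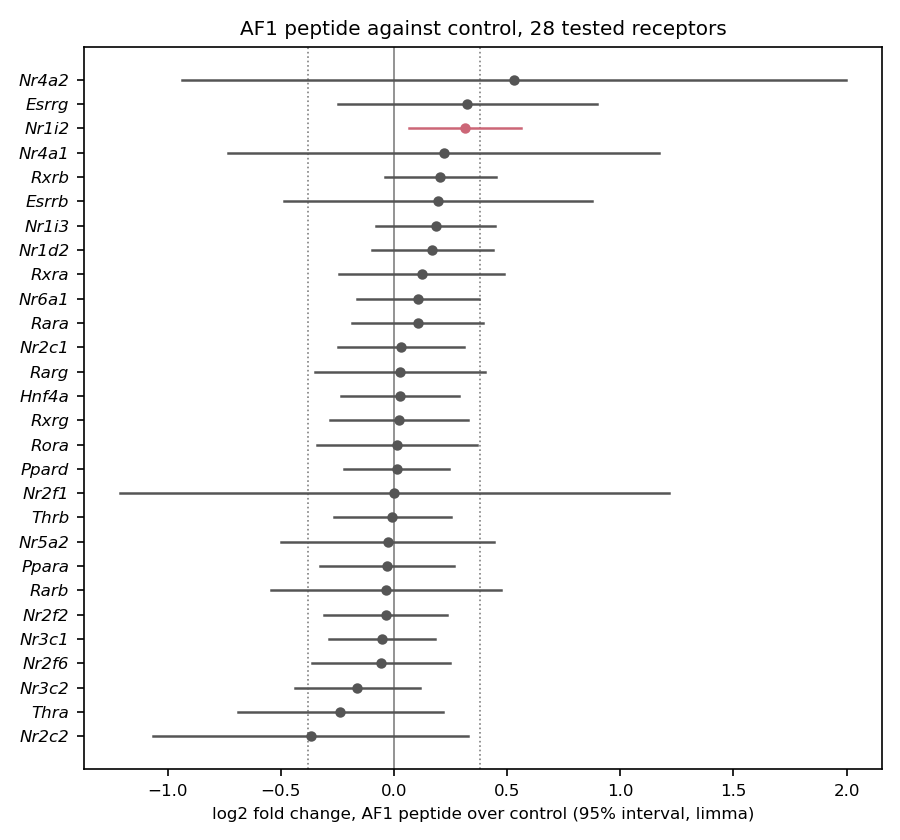
The log2 fold change of each tested receptor, AF1 peptide over control, on the log2(normalized count + 1) scale, as a point with its 95% interval from limma. Dotted lines mark a 1.3-fold change, and red marks an unadjusted p value under 0.05. The interval of Nr1i2 alone leaves out 0 (0.07 to 0.56), and those of Nr4a2, Nr2f1 and Nr4a1 are the widest.

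The receptor whose groups parted belongs to the xenobiotic receptors. Nr1i2 encodes PXR, which is activated by drugs, steroids and bile acids and turns on genes of drug clearance. Its normalized counts were 3649, 3200, 4099 and 4176 in control mice and 5072, 4606, 4773 and 4270 in AF1 peptide-treated mice. Each treated mouse was above each control mouse, though the lowest treated value, 4270, was close to the highest control value, 4176. The means were 3781 ± 452 and 4680 ± 334 (SD, n = 4 each), which is 0.31 ± 0.11 (standard error) on the log2 scale, or 1.24-fold with a 95% interval of 1.05 to 1.47. limma gave an unadjusted p value of 0.018, and with Benjamini-Hochberg adjustment over all tested genes 0.763, so that the difference did not pass the correction. Without AF1 peptide replicate 1 the difference was 0.27. Without control replicate 2 it was 0.24 and no longer passed an unadjusted p value of 0.05 in limma (0.0575), nor did it with libraries rescaled to equal totals (0.22, with an unadjusted p value of 0.202). The annotation holds 1 transcript of Nr1i2, of 2553 bases, with none of its 50-base words in another gene and no overlapping exon.

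Nr1i3 encodes CAR, the close relative of PXR that responds to phenobarbital-like compounds. It had 6921, 4917, 6072 and 6019 normalized counts in control and 6360, 7289, 6874 and 6497 in AF1 peptide-treated mice. These groups overlapped, because control replicate 1 was above 3 of the treated mice. The log2 fold change was 0.18, with a 95% interval of -0.08 to 0.45 (adjusted p = 0.781 in limma). Of its annotated exon bases, 74.9% lie over exons of Tomm40l on the opposite strand. The log2 fold change of Tomm40l itself was 0.34 ± 0.14 (standard error, adjusted p = 0.763 in limma), and since the use of strand in counting is not given, reads of the neighbouring pair may not be fully separated. Of 28 listed target genes of the xenobiotic receptors, all were tested, and 1 was higher and 1 lower at an unadjusted p value under 0.05, a share near the 6.19% of all tested genes. These were the sulfotransferase Sult5a1, with 15.5 ± 9.33 in control and 48.1 ± 24.0 normalized counts in treated mice (SD, n = 4 each), and the bilirubin-conjugating enzyme Ugt1a1, with 358 ± 88.2 and 250 ± 71.1 (SD, n = 4 each). The log2 fold changes of Sult5a1 and Ugt1a1 were 1.66 and -0.53, or 1.75 and -0.70 without AF1 peptide replicate 1. The list's median log2 fold change was 0.02. When AF1 peptide replicate 1 was left out, 1 target was higher and 3 were lower, where 10.1% of all tested genes had such a p value.

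**Figure D3:**
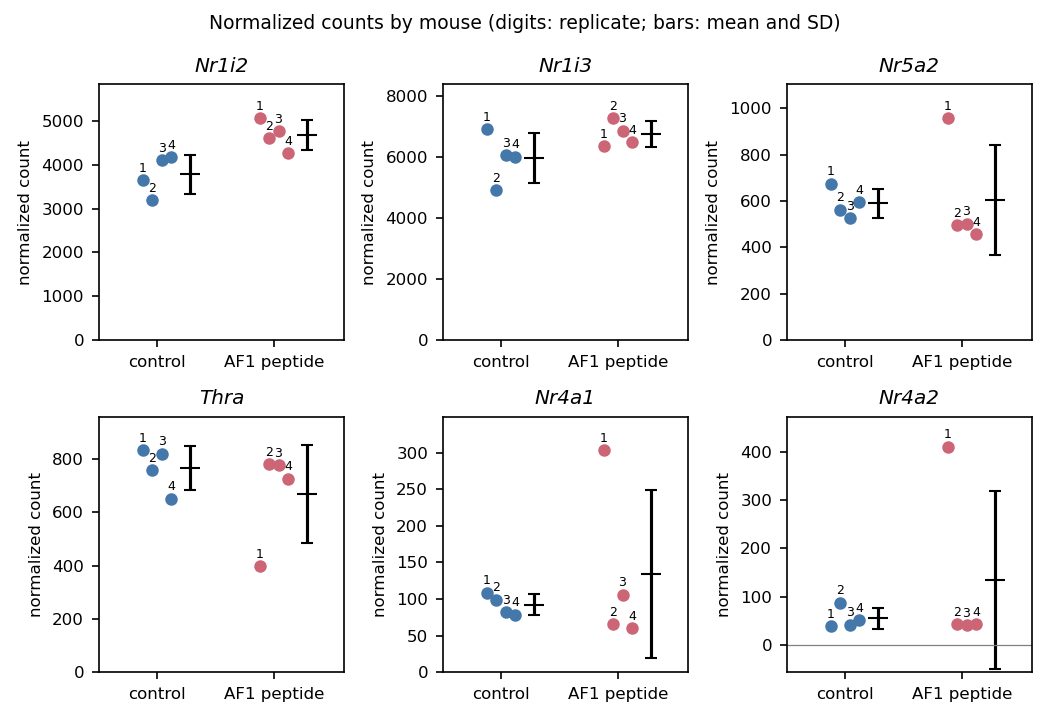
Normalized counts of 6 receptor genes in each mouse, control in blue and AF1 peptide in red, with the replicate number above each point and the mean with its SD as a black bar. Treated mice lie above control mice in Nr1i2, and AF1 peptide replicate 1 is alone at the top in Nr5a2, Nr4a1 and Nr4a2 and alone at the bottom in Thra.

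The NR4A receptors are immediate early genes that are induced within minutes by cAMP and stress signals and act without a known natural ligand. In the liver they are induced by glucagon and take part in glucose output. Their start-site regions are shown because Nr4a1 and Nr4a2 were both high in a single mouse. Another reason is that all 3 share the feature marked below. The list of receptors did not use this feature, but the choice to show these windows did. The shares of all windows given below therefore describe these windows and do not test them. The windows run from 250 bases before to 50 bases after the annotated start, from RefSeq on GRCm38.p6, and capitals mark each copy of TGACG, the core of the cAMP response element, or of its reverse complement CGTCA.
Nr4a1, chr15:101266596-101266895, plus strand: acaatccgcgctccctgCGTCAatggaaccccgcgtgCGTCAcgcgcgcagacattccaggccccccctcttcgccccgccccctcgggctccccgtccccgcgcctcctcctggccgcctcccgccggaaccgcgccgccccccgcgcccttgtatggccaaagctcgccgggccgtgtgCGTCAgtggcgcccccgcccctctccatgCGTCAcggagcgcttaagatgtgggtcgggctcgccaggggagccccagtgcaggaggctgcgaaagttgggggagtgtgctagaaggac
Nr4a2, chr2:57123954-57124253, minus strand: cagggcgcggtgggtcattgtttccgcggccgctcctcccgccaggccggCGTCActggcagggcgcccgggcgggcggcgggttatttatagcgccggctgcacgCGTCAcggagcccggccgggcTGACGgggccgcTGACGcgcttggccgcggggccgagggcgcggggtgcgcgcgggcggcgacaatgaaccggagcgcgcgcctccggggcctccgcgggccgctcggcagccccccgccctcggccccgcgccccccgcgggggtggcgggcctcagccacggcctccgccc
Nr4a3, chr4:48045055-48045354, plus strand: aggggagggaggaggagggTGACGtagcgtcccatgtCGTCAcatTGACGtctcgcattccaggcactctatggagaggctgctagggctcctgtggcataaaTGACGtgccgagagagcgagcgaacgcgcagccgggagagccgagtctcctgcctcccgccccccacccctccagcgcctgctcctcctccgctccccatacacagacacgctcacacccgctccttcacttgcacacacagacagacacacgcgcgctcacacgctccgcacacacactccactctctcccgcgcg
Each of these windows holds 4 copies, counted on both strands. At least 1 copy was found in 14 of the 43 windows of the 27 receptors that had an entry (32.6%) and in 20.8% of all 32851 windows of the reference, and 4 or more copies in 0.231% of all windows. No window of another receptor held as many. The full palindrome TGACGTCA, which contains TGACG in both directions, occurred in 1 receptor window (Nr6a1) and in 1.79% of all windows. AGGTCA, the core sequence that many nuclear receptors bind, occurred in 8 of the 43 windows (18.6%) and in 16.3% of all windows. These matches describe letters and not bound sites.

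Nr4a1 had 109, 99.5, 82.2 and 78.7 normalized counts in control mice and 303, 65.8, 106 and 60.6 in AF1 peptide-treated mice. Nr4a2 had 38.7, 87.6, 42.2 and 51.1 in control and 411, 43.8, 41.2 and 43.2 in treated mice. In both genes AF1 peptide replicate 1 was far above all other mice, at 3.69 times (Nr4a1) and 9.51 times (Nr4a2) the median of the other 7, and the remaining treated mice lay among or below the controls. Nr4a3 did not share this, with its 1.87 normalized counts in AF1 peptide replicate 1 coming from 2 reads. The log2 fold changes of Nr4a1 and Nr4a2 were 0.22 and 0.53, with 95% intervals of -0.73 to 1.17 and -0.94 to 2.00. Without AF1 peptide replicate 1 both were -0.28, so the direction of each difference rested on that mouse. In the same mouse the summed normalized count of 18 listed genes of the cAMP response was 175607, against 39608 to 89158 in the others. Such a sum is carried by its most abundant genes. Among the listed genes, Fos had 31.7 in this mouse, within the 20.6 to 47.3 of the others. Ppargc1a was highest in it, at 324 against 94.7 to 205. The summed count of 8 macrophage markers, none of them at 0, was 2520 in this mouse, against 5250 to 6393. The part of these shifts in the NR4A values was not tested. None of the 18 cAMP response genes had an unadjusted p value under 0.05 between the groups with all mice (0 genes in limma). Without that mouse none was higher and 5 were lower in treated mice, where 10.1% of all tested genes had such a p value in either direction.

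AF1 peptide replicate 1 was the most extreme of the 8 mice in much of the family. It had the highest value in 15 and the lowest in 6 of the 28 tested receptors, 75% in all, whereas it was the highest or lowest mouse in 49.3% of all tested genes. Besides Nr4a1 and Nr4a2, it was highest in Rxra, Rxrb, Nr1i2, Hnf4a, Nr5a2, Nr2f2, Nr2f6, Nr3c1, Thrb, Esrrb, Nr6a1, Rora and Nr1d2. It was lowest in Ppara, Ppard, Rarg, Rxrg, Thra and Esrrg.

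**Figure D4:**
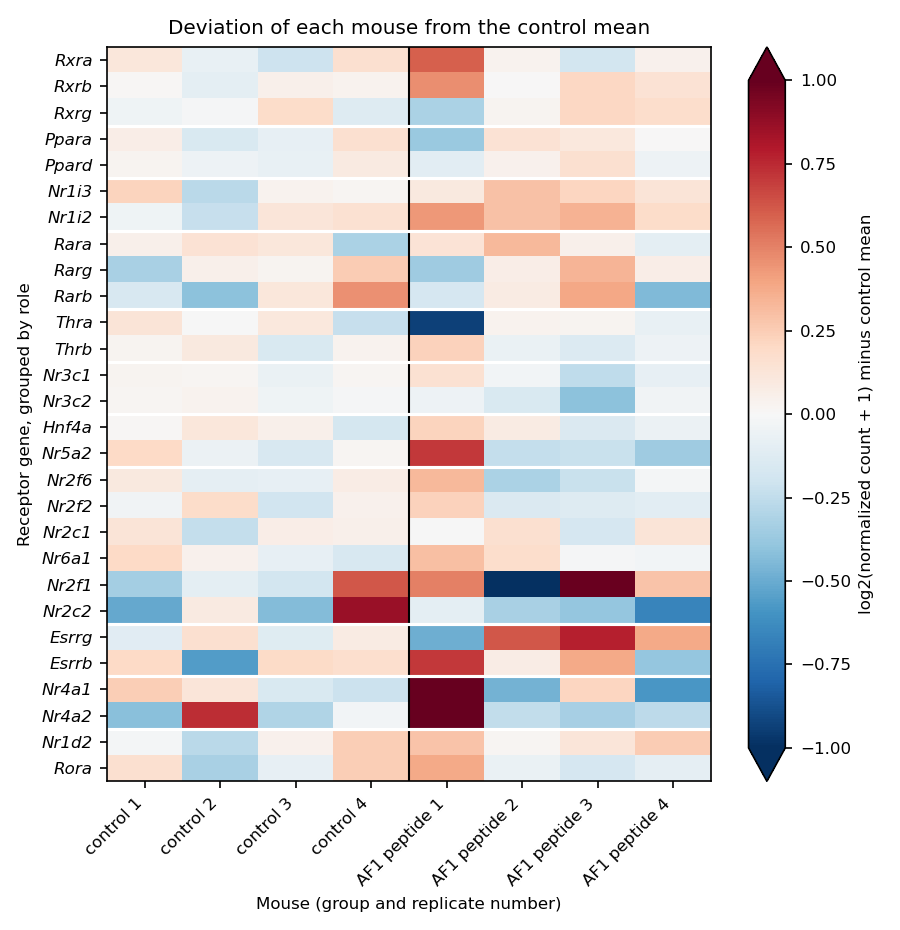
Deviation of each mouse from the control mean in log2(normalized count + 1), for the 28 tested receptors in rows grouped by role and the 8 mice in columns, with red higher and blue lower. The colour scale ends at 1 in each direction. The column of AF1 peptide replicate 1 is deepest in Nr4a1, Nr4a2 and Thra, and Nr1i2 is red in all 4 treated mice.

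RXRα, β and γ are the partners with which PPAR, RAR, TR, PXR and CAR bind DNA. Rxra had 5328, 4684, 4267 and 5499 normalized counts in control and 7461, 5050, 4324 and 5056 in AF1 peptide-treated mice. The groups overlapped apart from the high value of replicate 1, and the log2 fold change was 0.12 (95% interval -0.24 to 0.49) with that mouse and -0.04 without it. Rxrb ranged from 637 to 706 in control and from 681 to 941 in treated mice, a log2 fold change of 0.20 (95% interval -0.04 to 0.45). The highest value was again that of AF1 peptide replicate 1, and without it the difference was 0.12. Rxrg, the least abundant of the 3, ranged from 296 to 368 and from 259 to 373. Rxra made up 64.9 to 76.0% of the summed RXR level per kilobase in the 8 mice. The summed level per kilobase of the 9 measured receptors that pair with RXR (Ppara, Ppard, Rara, Rarb, Rarg, Thra, Thrb, Nr1i2 and Nr1i3) was 4.03 to 4.78 times the RXR sum in control mice and 4.36 to 5.20 times in AF1 peptide replicates 2 to 4. In AF1 peptide replicate 1 it was 3.13 times, below all other mice.

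Among the fatty acid receptors, Ppara drives fat oxidation and ketone body synthesis in the fasted liver. Its normalized counts were 6453, 5534, 5818 and 6890 in control and 4754, 6805, 6611 and 6164 in AF1 peptide-treated mice. Apart from the low value of replicate 1, the treated mice lay within the control range, and the log2 fold change was -0.03 (95% interval -0.33 to 0.27), or 0.08 without that mouse. Ppard, the broadly expressed relative, was the steadiest receptor of the 29, with 282 to 339 normalized counts and a coefficient of variation of 6.39% over the 8 mice. The 28 listed PPARα target genes were all tested, and 1 was higher and 1 lower at an unadjusted p value under 0.05, again near the 6.19% of all tested genes. The acyl-CoA thioesterase Acot3 had 2126 ± 812 in control and 3047 ± 447 in treated mice (SD, n = 4 each). Ehhadh, of peroxisomal fatty acid oxidation, had 6574 ± 1359 and 5090 ± 585 (SD, n = 4 each). Of these targets 8 had a log2 fold change above 0, and their median was -0.15, against -0.01 over all tested genes. The summed count of the list was 327712 in AF1 peptide replicate 1 and 555485 to 650906 in the other 7 mice. Without that mouse the median was 0.06, with 4 targets higher and 1 lower at an unadjusted p value under 0.05 (10.1% of all tested genes).

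Hnf4a keeps hepatocyte genes on, and Nr5a2 encodes LRH-1, which regulates bile acid and cholesterol genes. Hnf4a had 8780, 9440, 9045 and 7720 normalized counts in control and 10179, 9256, 7909 and 8356 in treated mice. The groups overlapped, and the log2 fold change of 0.03 had a 95% interval of -0.23 to 0.29, and was -0.04 without AF1 peptide replicate 1, the highest mouse. None of the 21 tested genes of the Hnf4a target list had an unadjusted p value under 0.05 (0 genes in limma), and without AF1 peptide replicate 1, 1 was lower. Nr5a2 had 674, 562, 526 and 595 in control and 958, 497, 503 and 458 in treated mice. AF1 peptide replicate 1 was above all other mice here, whereas the other 3 treated mice were below all controls. With all mice the log2 fold change was -0.03 (95% interval -0.50 to 0.44), and without replicate 1 it was -0.27 (unadjusted p = 0.0299 and adjusted p = 0.485 in limma). Without that mouse, 10.1% of all tested genes had an unadjusted p value under 0.05.

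Retinoic acid receptors carry the vitamin A signal, and thyroid hormone receptors tune lipid and cholesterol turnover. Rara, the most abundant retinoic acid receptor, had 1094, 1167, 1144 and 848 normalized counts in control and 1159, 1322, 1092 and 988 in treated mice, with a log2 fold change of 0.10 (95% interval -0.18 to 0.39). Rarg ranged from 214 to 347 and Rarb from 77.1 to 145 over the 8 mice, each with overlapping groups. The exons of Rarb overlap those of other genes on the opposite strand, Top2b among them, over 38.4% of their length. Thra had 833, 758, 819 and 651 in control and 398, 780, 777 and 725 in treated mice. AF1 peptide replicate 1 was far lowest, and the other treated mice lay within the control range. The log2 fold change of Thra was -0.24 (95% interval -0.69 to 0.22), and -0.003 without that mouse. The end of Thra overlaps the clock gene Nr1d1 on the opposite strand over 5.7% of its exon bases, and Nr1d1 was also lowest in that mouse, at 1071 against 1687 to 2493 elsewhere. Thrb, the receptor form through which thyroid hormone mainly acts in liver, ranged from 297 to 388, with a log2 fold change of -0.01 (95% interval -0.26 to 0.25). Of 13 listed thyroid hormone targets 1 was lower and none higher at an unadjusted p value under 0.05. Such a value was found in 6.19% of all tested genes. Without AF1 peptide replicate 1, 1 was lower and 1 higher, where 10.1% of all tested genes had such a p value. The lower target in both fits was Gpd2, a mitochondrial glycerol phosphate dehydrogenase, with 797 ± 90.0 in control and 630 ± 78.1 in treated mice (SD, n = 4 each). Its log2 fold change was -0.34, or -0.26 without AF1 peptide replicate 1. Of 10 tested retinoic acid targets none had an unadjusted p value under 0.05, with or without that mouse (0 genes in limma).

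The corticosteroid receptors were among the least variable members. Nr3c1, the glucocorticoid receptor, had 532, 526, 497 and 527 normalized counts in control and 579, 510, 436 and 492 in treated mice. The treated mice lay on both sides of the controls, and the log2 fold change was -0.05 (95% interval -0.29 to 0.18), or -0.12 without AF1 peptide replicate 1. Nr3c2, the mineralocorticoid receptor, ranged from 168 to 177 in control and from 130 to 169 in treated mice, a log2 fold change of -0.16 (95% interval -0.44 to 0.12). Among 20 listed glucocorticoid targets 2 were higher at an unadjusted p value under 0.05, as were 3.16% of all tested genes, and none was lower. In the fit that left out AF1 peptide replicate 1, 2 were higher and 6 were lower, 40% of the list against 10.1% of all tested genes. The median log2 fold change of the list went from 0.07 to -0.21. Zbtb16 and Fkbp5 were the 2 higher targets in both fits. Zbtb16, a transcription factor gene, had 158 ± 70.0 in control and 301 ± 93.8 in treated mice (SD, n = 4 each), a log2 fold change of 0.99, or 0.81 without that mouse. Fkbp5, a cochaperone that restrains the glucocorticoid receptor, had 637 ± 52.0 and 856 ± 186 (SD, n = 4 each), and its groups did not overlap. Fkbp5 was highest in AF1 peptide replicate 1 at 1136, and its log2 fold change was 0.41 with that mouse (adjusted p = 0.763 in limma) and 0.26 without it. The summed count of the 20 targets was 350106 in that mouse and 93126 to 152808 in the others. This list and that of the cAMP response share some genes, so their sums and counts are not independent. Both were also chosen with earlier results of these data known.

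COUP-TF and testicular orphan receptors mostly act as repressors that compete for the sites of other receptors. Nr2f6, the most abundant of them, had 1909, 1677, 1685 and 1876 normalized counts in control and 2232, 1434, 1530 and 1762 in treated mice. Its groups overlapped, with a log2 fold change of -0.06 (95% interval -0.36 to 0.25), or -0.18 without AF1 peptide replicate 1, and 54.4% of its exon bases lie over Ocel1 on the opposite strand. Nr2f2 ranged from 484 to 652, Nr6a1 from 334 to 460 and Nr2c1 from 213 to 281 over the 8 mice. For each of these 3 genes the log2 fold change was between -0.04 and 0.11. Nr2c2 ranged from 23.0 to 67.8, with control replicate 4 highest, and 31.2% of its exon bases lie over genes on the opposite strand. Nr2f1 ranged from 3.65 to 30.5, and its 95% interval of -1.21 to 1.21 allowed changes of more than 2-fold either way.

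Estrogen-related receptors are orphan relatives of the estrogen receptor that bind no estrogen and regulate mitochondrial and glucose genes. Esrrg had 64.3, 77.8, 63.8 and 73.7 normalized counts in control and 49.5, 108, 120 and 90.9 in AF1 peptide-treated mice. Treated replicates 2 to 4 were above every control and replicate 1 was below every control. The log2 fold change was 0.32 (95% interval -0.25 to 0.90, adjusted p = 0.811 in limma) with all mice and 0.59 without replicate 1 (unadjusted p = 0.00448, adjusted p = 0.452 in limma). Without that mouse Esrrg was the 1 receptor past both the p value and the fold threshold, as were 5.93% of all tested genes. Esrrb ranged from 13.8 to 34.5.

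The clock receptors Nr1d2 and Rora compete for the same elements of clock genes, Nr1d2 (REV-ERBβ) as a repressor and Rora as an activator. Nr1d2 had 1773, 1493, 1851 and 2135 normalized counts in control and 2195, 1821, 1956 and 2139 in treated mice. The groups overlapped, with a log2 fold change of 0.17 (95% interval -0.10 to 0.44). Rora ranged from 389 to 580 in control and from 433 to 636 in treated mice. Of 19 listed clock genes 4 were higher at an unadjusted p value under 0.05, as were 3.16% of all tested genes, and none was lower, while the list's median log2 fold change was 0.00. This list was chosen with earlier results of these data known, so its counts are not an independent test. Leaving out AF1 peptide replicate 1 gave 3 higher and 1 lower, 21.1% of the list against 10.1% of all tested genes. Usp2, a clock-controlled deubiquitinase, had 438 ± 89.5 in control and 746 ± 168 in treated mice (SD, n = 4 each). Its groups did not overlap, its adjusted p value was 0.763 in limma, and its log2 fold change was 0.76, or 0.65 without that mouse. The summed count of the 19 genes was 34757 in AF1 peptide replicate 1 and 23707 to 28709 in the others.

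Of 11 tested nuclear receptor genes outside the 30 listed, 3 were higher at an unadjusted p value under 0.05, as were 3.16% of all tested genes, and none was lower, with a median log2 fold change of 0.17 over the 11. Without AF1 peptide replicate 1 the count was also 3 higher and none lower, where 4.58% of all tested genes were higher. Esrra, the third estrogen-related receptor, had 1673 ± 85.5 in control and 1969 ± 126 in treated mice (SD, n = 4 each), each treated mouse being above each control, and differed by 0.23 ± 0.09 (standard error) on the log2 scale, or by 0.21 without that mouse. Esr1, the estrogen receptor α gene from whose protein the peptide was derived, was named after its values were seen and differed by 0.55 ± 0.24 (standard error) on the log2 scale. AF1 peptide replicate 1 was its highest mouse, at 521 against 175 to 354 elsewhere, and without it the difference was 0.32 and no longer passed an unadjusted p value of 0.05 in limma (0.0827). The adjusted p value was 0.763 for both genes in limma. Of the proteins through which receptors act, 1 of 16 coactivator genes and 2 of 15 corepressor genes were higher at an unadjusted p value under 0.05. None was lower, and 3.16% of all tested genes were higher. Without AF1 peptide replicate 1 these counts were the same, apart from 1 coactivator gene that was lower. In that fit 4.58% of all tested genes were higher and 10.1% had such a p value in either direction. The higher coactivator was Ncoa6, with 622 ± 32.0 in control and 722 ± 33.3 in treated mice (SD, n = 4 each), and its groups did not overlap. The corepressors were Zbtb20 and Gps2, at 0.45 ± 0.16 and 0.25 ± 0.11 (standard error) on the log2 fold change scale. Of 19 tested genes that supply or remove receptor ligands, 3 were higher at an unadjusted p value under 0.05, as were 3.16% of all tested genes, and none was lower, with the same counts when AF1 peptide replicate 1 was left out. Adh7, an alcohol dehydrogenase that also oxidizes retinol, had 268 ± 5.95 in control and 404 ± 71.2 in treated mice (SD, n = 4 each), and Cyp27a1, a sterol 27-hydroxylase, had 7952 ± 957 and 10161 ± 1282 (SD, n = 4 each). With AF1 peptide replicate 1 left out, their log2 fold changes went from 0.57 to 0.47 and from 0.35 to 0.29. The third, Dgat1, was named after its values were seen. The lists of this paragraph were chosen with earlier results of these data known, so their counts are not independent tests. In all, of the listed genes outside the family none passed an adjusted p value of 0.05, since no gene of the table did in limma (0 of 15989, with 990 at an unadjusted p value under 0.05, and 3 genes in DESeq2).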

How the data were processed

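Frozen livers yielded 1 stranded mRNA library per mouse. Per the methods and the submitters' processing notes, reads were trimmed (Trim Galore 0.6.7), aligned to mm39 (HISAT2), sorted (SAMtools 1.17) and assigned to genes (GenomicAlignments) by the authors. Annotation and use of strand in counting are not given in the sources used here. The authors deposited normalized counts, a signal in which whole reads are divided by the size factor of their library (100% of 172256 values gave whole reads within 0.01 read). Groups came from the labels. Genes with a mean of at least 10 were tested with limma 3.58.1 (R 4.3.3, intensity trend, unpaired) on log2(normalized count + 1), a scale that understates fold changes of low genes. Calls required more than 1.3-fold change at an unadjusted p value below 0.05. The fit was also run on simulated data with changes larger than 1.3-fold and no mouse that stood apart. That run does not show how the fit handles a mouse like AF1 peptide replicate 1 or smaller changes.

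Alternatives were pseudocounts of 0.5 and 5, no filter, 10 in every mouse, TMM factors, equal totals, no trend, own variances, a replicate block, no fold threshold, each mouse left out, and, from the recovered reads, DESeq2 1.42.0 and edgeR 4.0.16. List counts without AF1 peptide replicate 1 were added after seeing the data. Transcript lengths, exon overlaps and shared 50-base words came from GENCODE M21 (GRCm38). The receptors and gene lists were chosen with earlier results of these data known. All receptors were named, with each mouse's value where groups did not overlap, where the unadjusted p value was under 0.05, for the 5 highest per kilobase and for the highest of each role, and for some in which a mouse stood apart. Of each list at most the 2 genes with the smallest p values were named, unless stated, and 1 gene that this names is not reported here.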

Additional observations from a re-analysis of the deposited data

Results flagged for a closer look

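In each group of 4 mice, the gap between the highest or lowest mouse and its nearest neighbour was divided by the range of the group and compared with Dixon's 95% critical value. Of 58 groups (29 receptors in each condition), 8 were past it, where chance gives about 1 in 20, or 2.9. In 5 of these the mouse that stood apart was AF1 peptide replicate 1, so they come from a single library. It was highest in Nr4a2 (gap over range 0.993), Nr5a2 (0.912), Nr2f2 (0.908) and Rora (0.840), and lowest in Thra (0.858). In Nr4a1 this mouse was the highest of all but its gap stayed under Dixon's value. Among control mice, replicate 2 was lowest in Esrrb (0.956), with 13.8 normalized counts against 23.4 to 23.9 in the others, and replicate 3 was lowest in Nr3c1 (0.835), with 497 against 526 to 532. AF1 peptide replicate 2 was highest in Nr4a3 (0.884), a gene with at most 5 reads in a library.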

How the results depend on the processing

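No receptor was called in the fits of all 8 mice that used the fold threshold, and without that threshold 1 was, Nr1i2. Nr4a2 had no p value in DESeq2 and could not be called there. With 1 mouse left out in turn, 0 to 1 receptors and 371 to 948 genes were called, against 590 genes with all mice. The calls came to 894 genes without a filter and to 990 without the fold threshold. With equal totals the median over all genes went from -0.01 to -0.10 on the log2 scale, and 16.9% of the calls were higher in treated mice in place of 48.5%. In that fit the log2 fold changes changed sign in Ppard (-0.079), Rarg (-0.064), Rxrg (-0.069), Hnf4a (-0.065), Nr2c1 (-0.060), Nr2f1 (-0.076) and Rora (-0.077). Nr2f1 also did with a pseudocount of 0.5 (-0.014) and with TMM factors (-0.0042), and Nr5a2 with edgeR (0.034) and DESeq2 (0.037). The cause was not tested. With 1 mouse left out in turn, log2 fold changes spanned 0 in Ppara (-0.088 to 0.084), Ppard (-0.037 to 0.051), Rara (-0.00061 to 0.17), Rarb (-0.18 to 0.12), Rarg (-0.080 to 0.16), Rxra (-0.036 to 0.23), Rxrg (-0.040 to 0.13), Thrb (-0.085 to 0.036), Hnf4a (-0.039 to 0.082), Nr2c1 (-0.048 to 0.097), Nr2f1 (-0.33 to 0.59), Nr2f2 (-0.13 to 0.025), Nr2f6 (-0.18 to 0.028), Nr3c1 (-0.12 to 0.015), Nr4a1 (-0.28 to 0.49), Nr4a2 (-0.28 to 0.82), Nr5a2 (-0.27 to 0.081) and Rora (-0.11 to 0.097). Nr1i2 stayed above 0 (0.24 to 0.36). Without AF1 peptide replicate 2, Rxrb had an unadjusted limma p value of 0.0376.

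Replicate numbers are shared by the groups but nothing in the labels ties same-numbered mice together. Such mice deviated from their group means with correlations of 0.24, 0.02, 0.22 and -0.06 across genes, and not every mouse correlated best with its own number. With the replicate block 733 genes and 0 receptors were called. Nr1i2 then differed by 0.31 on the log2 scale, with an unadjusted limma p value of 0.0253.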
